A study of Mus musculus with 12 samples.

Results

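The ADAM and ADAMTS proteases were taken as the genes whose names are Adam, Adamts or Adamtsl followed by a number, and 26 of the 21954 genes of the expression table met that rule. They were 10 ADAM genes (Adam1a, Adam4, Adam9, Adam10, Adam11, Adam15, Adam17, Adam19, Adam28 and Adam33), 11 ADAMTS genes (Adamts1, Adamts2, Adamts5, Adamts6, Adamts7, Adamts8, Adamts9, Adamts10, Adamts12, Adamts14 and Adamts15) and 5 ADAMTS-like genes (Adamtsl1, Adamtsl2, Adamtsl3, Adamtsl4 and Adamtsl5). Other genes of these families were not analysed here. The libraries came from mice labelled Notch1.129S6+/-, heterozygous for Notch1 on the 129S6 background, and from WT littermates, all at 2 months of age. From 3 mice of each genotype, proximal ascending aorta, next to the root that dilates in the heterozygotes, and distal ascending aorta were sequenced separately, which gave 12 libraries in 4 groups of 3. The study asked why dilation is limited to the root. The proximal and distal libraries with the same genotype and number came from the same mouse, per the sample sheet. The labels do not describe the Notch1 allele further or give the time of day at which tissue was taken.

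ADAM proteins are metalloproteases anchored in the cell membrane, and they release the outer parts of other membrane proteins, a step called shedding. Adam10 and Adam17 are the members best known in Notch signalling, since cutting of the ligand-bound receptor near the membrane by an ADAM lets γ-secretase free its active intracellular part. ADAMTS proteases are secreted and hold thrombospondin motifs that tether them to the matrix, where they cut proteoglycans such as versican and aggrecan or trim procollagens. ADAMTS-like proteins share the ancillary domains and lack the protease, and several of them bind fibrillin microfibrils, a scaffold of the elastic aortic wall.

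Values are RPKM, read counts divided by gene length and by library size, so levels can be compared between genes. Total reads were 26518332 to 36742096 per library, and the members' values corresponded to between 18 reads, for Adam1a, and 3207 reads, for Adamts1, wherever they lay above the floor of 0.158 RPKM that replaced undetected values. Summed RPKM of 12 cardiomyocyte markers was 278 to 1736 in the proximal libraries and 27.9 to 355 in the distal libraries, and that of the chondrogenic and valve markers was 61.3 to 182 proximally and 5.29 to 16.6 distally. The 6 smooth muscle markers summed to 2855 to 4552 RPKM in the proximal libraries and 2909 to 5186 in the distal libraries, so the contractile wall was strongly represented at both sites. Notch1 itself was higher, not lower, in the libraries labelled Notch1+/-: 2.20, 1.65 and 1.63 RPKM against 1.11, 1.19 and 1.56 in WT proximal tissue, and 1.18, 1.85 and 1.51 RPKM against 1.12, 0.972 and 0.538 in WT distal tissue. The expression values thus do not show the loss of a Notch1 copy, and each genotype direction below is that of the libraries as labelled. Notch1, like every other gene, did not pass the genotype test below in either tissue. Its values did not overlap between the genotypes, with those labelled Notch1+/- higher, as for 7.78% of tested genes proximally and 2.63% distally.

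Transcripts of 9 of the 26 genes averaged at least 5 RPKM over the 12 libraries, 12 averaged 1 to 5 RPKM and 5 averaged under 1 RPKM. Adamts1, a protease of versican and aggrecan, and Adamts10, which binds fibrillin and whose loss causes Weill-Marchesani syndrome in humans, led with means of 19.9 and 19.7 RPKM. Adam33, an ADAM of mesenchymal cells, followed with 13.3 RPKM, Adamtsl5 with 12.4 RPKM and Adamts2, the main procollagen I aminopropeptidase, with 11.5 RPKM. These 5 genes made up 55.4% of the summed mean RPKM of the 26 genes. Neighbours in this order did not separate: Adamts1 ranged from 6.91 to 37.5 RPKM and Adamts10 from 12.4 to 32.9 RPKM, and the ranges of Adam33, Adamtsl5 and Adamts2 overlapped one another.

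Among the other membrane ADAMs, Adam9 averaged 8.64 RPKM, Adam17 5.50, Adam15 4.72, Adam19 4.21 and Adam10 3.96 RPKM, while Adam28 averaged 1.05 RPKM. Of the proteoglycan-cleaving ADAMTS genes, Adamts5 averaged 6.06 RPKM, Adamts9 2.55, Adamts8 1.81 and Adamts15 1.59 RPKM. Adamts6, the relative of Adamts10, averaged 7.03 RPKM. The second procollagen protease of the table, Adamts14, averaged 1.26 RPKM, so Adamts2 was the more abundant of the 2 in every library. Of the ADAMTS-like genes, Adamtsl4 averaged 4.88 RPKM, Adamtsl3 2.5, Adamtsl2 2.1 and Adamtsl1 0.803 RPKM. Adamts12 averaged 1.01 RPKM and its close relative Adamts7, both known to cleave the matrix protein Comp, 0.325 RPKM. The testis-associated Adam4 and Adam1a averaged 0.925 and 0.482 RPKM, and Adam11, an ADAM without an active protease site that is best known from neurons, averaged 0.371 RPKM.

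**Figure D1:**
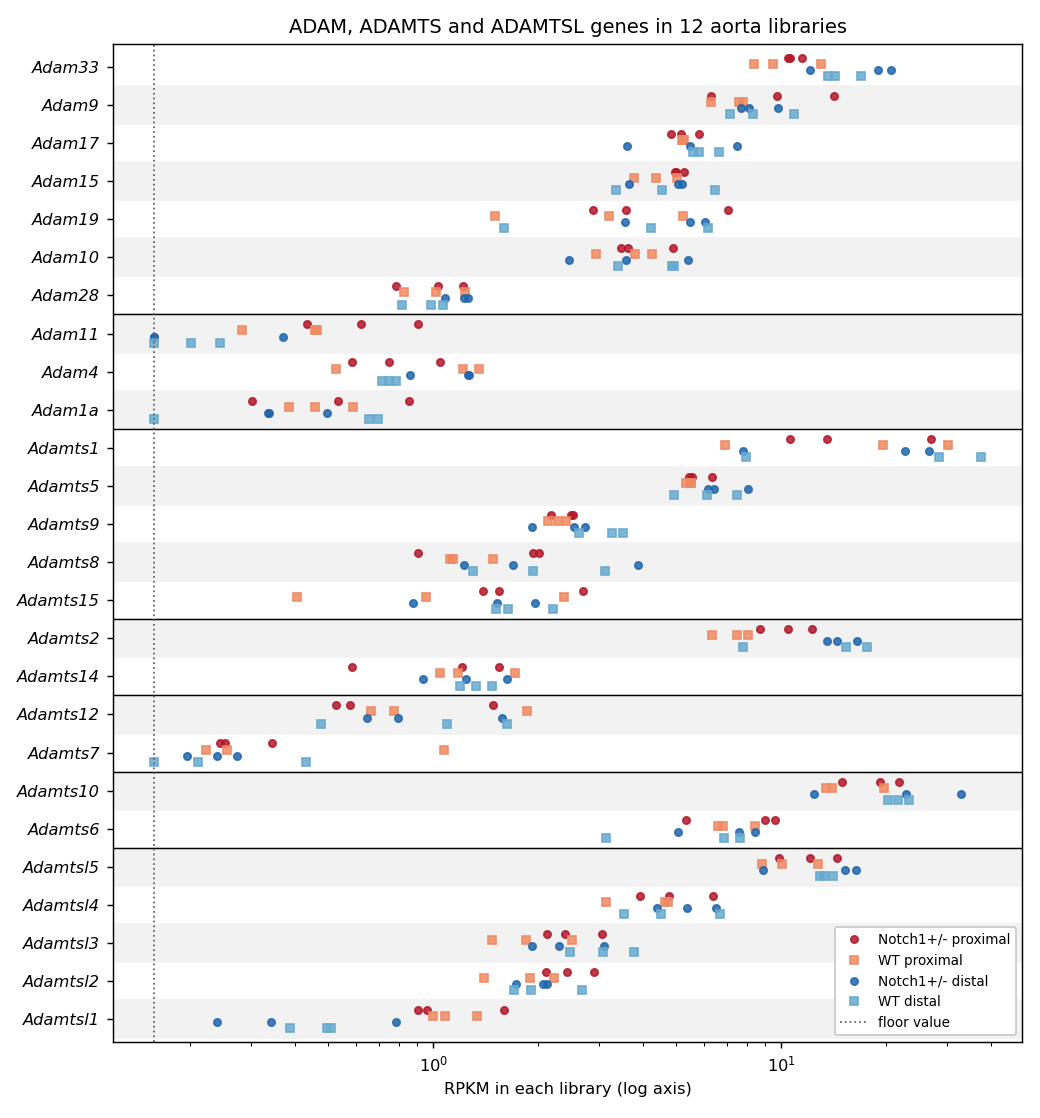
RPKM of the 26 genes in each of the 12 libraries, on a log axis, with 1 point per library (red, Notch1+/- proximal; orange, WT proximal; dark blue, Notch1+/- distal; light blue, WT distal) and the floor value as a dotted line. Horizontal lines divide, from the top, membrane ADAMs, the noncatalytic and testis-associated ADAMs, proteoglycan-cleaving ADAMTS, procollagen ADAMTS, Adamts7 and Adamts12, fibrillin-linked ADAMTS and ADAMTS-like genes. Levels span from the floor to 37.5 RPKM, and the 4 groups overlap for most genes.

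In 5 of the 26 genes, more than 10% of the exon bases lie under exons of a gene on the other strand (mm10, GENCODE annotation), and the amplification kit does not mark strand. These are Adam15 with 20.6%, Adamts9 with 12.0%, Adam1a with 11.3%, Adamts8 with 10.6% and Adam19 with 10.1%, and their values may hold reads of the partner. For Adam1a, another 63.7% lies under genes of the same strand, so its value is the least certain. Adam17 shares 4.35% of its exon bases with Iah1. Adamts1 (chr16:85793827-85803113) and Adamts5 (chr16:85858170-85901125) are neighbours on the minus strand, and Adamts15 (chr9:30899155-30922452, minus strand) lies beside Adamts8 (chr9:30942562-30963838, plus strand).

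The first comparison was of proximal with distal aorta, averaged over the genotypes. None of the 23 members that entered the test passed it at an adjusted p under 0.05 (limma over 17297 genes, Benjamini-Hochberg), where 1.5% of all genes passed. Adam1a, Adam11 and Adamts7 were too low to enter, since the test took genes with at least 1 RPKM in at least 3 libraries. At an unadjusted p under 0.05 there were 3 members, against 11.1% of all genes. Of these, 1 was fitted higher proximally, as were 4.57% of all genes, and 2 were fitted lower, as were 6.55%. The fitted difference was below 0 for 19 of the 23 members and above 0 for 4, with a median of -0.13 on the log2 scale. Over all genes the median was -0.05 and 41.5% were fitted higher. In bulk tissue, fewer cells of a type and less RNA per cell cannot be told apart.

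Adamtsl1 (chr4:86053915-86428385), also called punctin, a secreted matrix protein without protease activity, had the largest fitted difference. It had 0.907, 0.958 and 1.60 RPKM in proximal libraries labelled Notch1+/- and 1.34, 1.08 and 0.999 RPKM in WT proximal libraries, against 0.342, 0.783 and 0.239 RPKM in distal libraries labelled Notch1+/- and 0.508, 0.494 and 0.387 RPKM in WT distal libraries. All 6 proximal values lay above all 6 distal values, a pattern that 0.838% of tested genes had. The means were 1.15 ± 0.268 RPKM proximally and 0.459 ± 0.188 RPKM distally (SD, n = 6 libraries each), a ratio of 2.5. The fitted log2 difference was 0.79 (SE 0.21), with an adjusted p of 0.11 in limma's test, which is not past the threshold. The exact sign-flip permutation test over the 6 mice gave a two-sided p of 0.03125, the smallest that 6 pairs allow, before any adjustment. Any gene with the same direction in all 6 mice gets this p, and 2.57% of tested genes were higher proximally in all 6. Reads behind these values were 154 to 321 in the proximal libraries and 45 to 138 in the distal ones. Only 3 libraries reached 1 RPKM, and all 3 were proximal, so Adamtsl1 entered the test through the tissue where it was higher.

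Adam11 (chr11:102761439-102780262) showed the same direction at a lower level, with 0.621, 0.434 and 0.907 RPKM in proximal libraries labelled Notch1+/- and 0.458, 0.283 and 0.464 RPKM in WT proximal libraries. The distal libraries labelled Notch1+/- had the floor value, 0.370 RPKM and the floor value, and the WT distal libraries had the floor value, 0.201 and 0.244 RPKM. The proximal value was the higher in 6 of 6 mice. Of tested genes 2.57% showed this, but Adam11 was too low to be among them and was not tested. The share among genes as low as Adam11 was not obtained. Its values rest on 28 to 95 reads in the proximal libraries and on 21, 24 and 34 reads in the 3 distal libraries above the floor.

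Adam33 (chr2:131050591-131063814), the third most abundant member, ran the other way. It had 10.4, 10.6 and 11.5 RPKM in proximal libraries labelled Notch1+/- and 9.49, 13.0 and 8.38 RPKM in WT proximal libraries, against 19.0, 20.7 and 12.1 RPKM in distal libraries labelled Notch1+/- and 13.6, 14.2 and 16.9 RPKM in WT distal libraries. The proximal value was the lower in 6 of 6 mice, which 5.65% of tested genes showed, and the groups overlapped only through WT proximal mouse 2 and the distal library labelled Notch1+/- 3. The means were 10.6 ± 1.59 RPKM proximally and 16.1 ± 3.34 RPKM distally (SD, n = 6 libraries each), and the fitted log2 difference was -0.57 (SE 0.16, adjusted p = 0.12 in limma's test). Without the distal library labelled Notch1+/- 3, which held the lowest distal value, the difference was -0.69 with an adjusted p of 0.0380 in limma's test. That was the only 1 of 21 alternative fits in which Adam33 passed. Over the 21 fits the difference ran from -0.69 to -0.50 and limma's adjusted p from 0.0380 to 0.31.

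Adamts2 (chr11:50602084-50807573) had 12.2, 8.68 and 10.5 RPKM in proximal libraries labelled Notch1+/- and 6.34, 8.0 and 7.47 RPKM in WT proximal libraries, against 14.5, 16.6 and 13.5 RPKM in distal libraries labelled Notch1+/- and 7.79, 17.6 and 15.3 RPKM in WT distal libraries. It too was lower proximally in 6 of 6 mice, and WT distal mouse 1 was the single distal library within the proximal range. The means were 8.86 ± 2.15 RPKM proximally and 14.2 ± 3.47 RPKM distally (SD, n = 6 libraries each). The fitted log2 difference was -0.64 (SE 0.19, adjusted p = 0.15 in limma's test). Without WT distal mouse 1, the lowest distal value, it was -0.81 with an adjusted p of 0.0167 in limma's test. That was the only 1 of 21 alternative fits in which Adamts2 passed. Over the 21 fits the difference ran from -0.81 to -0.53 and limma's adjusted p from 0.0167 to 0.36. For Adam33 and Adamts2, as for Adamtsl1, the exact sign-flip test over mice gave its smallest possible p, 0.03125. That p follows from the same direction in 6 of 6 mice and adds nothing to it. Of tested genes, 5.65% were lower proximally in 6 of 6 mice. Cardiomyocyte and chondrogenic marker levels differed between the sites in the same 12 libraries, as given above, and their part in these 3 differences was not tested. Without the 2 distal libraries with the most Myh6, a cardiomyocyte myosin, the fitted log2 differences were 0.76 for Adamtsl1, -0.55 for Adam33 and -0.54 for Adamts2. That fit cannot decide the part of cardiomyocyte content. Myh6 was 63.2 to 354 RPKM in the proximal libraries and 2.12 to 5.30 RPKM in the distal libraries that were left, so the sites still differed.

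**Figure D2:**
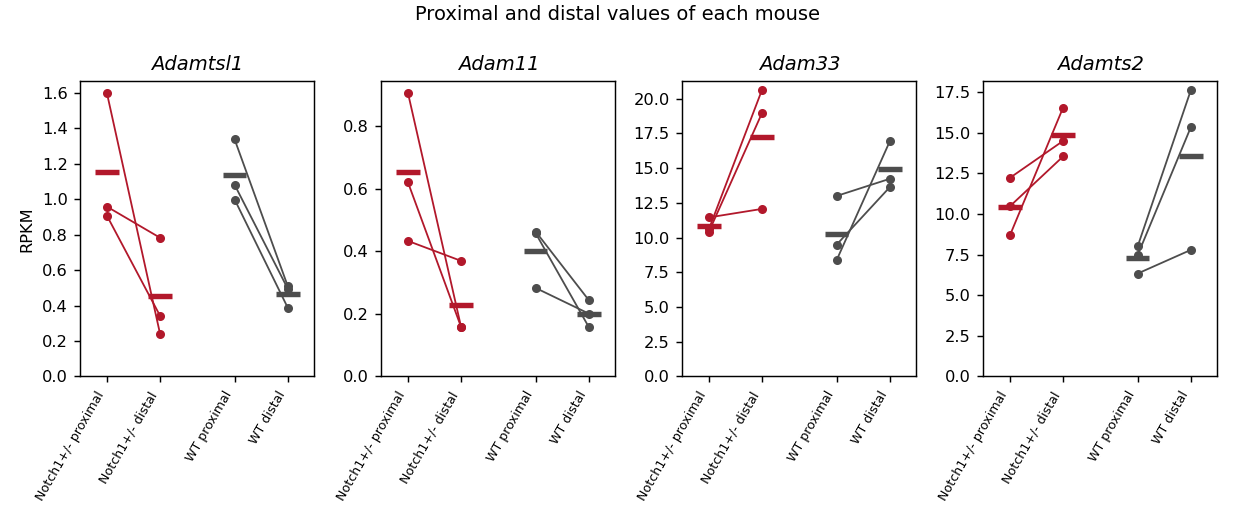
RPKM of Adamtsl1, Adam11, Adam33 and Adamts2 in the proximal and distal aorta of each mouse, with a line joining the 2 libraries of a mouse and a bar at each group mean (red, labelled Notch1+/-; grey, WT). Adamtsl1 and Adam11 lie higher proximally in 6 of 6 mice, and Adam33 and Adamts2 lie lower proximally in 6 of 6 mice.

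Within each genotype, 0 of the 23 members passed limma's test of location. In the mice labelled Notch1+/-, 0.254% of all genes passed and 2 members had an unadjusted p under 0.05, against 7.17% of all genes; in WT mice 0.237% passed and 4 members had an unadjusted p under 0.05, against 8.26% of all genes. With the mouse as a block, 21 genes passed in WT mice in place of 41, and again 0 members. Adamtsl1 had a fitted log2 difference of 0.81 (SE 0.30, adjusted p = 0.52) in mice labelled Notch1+/- and 0.76 (SE 0.30, adjusted p = 0.53) in WT mice. Adam33 had -0.61 (SE 0.22) in mice labelled Notch1+/- and -0.53 (SE 0.22) in WT mice, and Adamts2 had -0.49 (SE 0.26) in mice labelled Notch1+/- and -0.79 (SE 0.26) in WT mice. Adamtsl3, also called punctin-2, was among the 3 largest in WT mice with -0.57 (SE 0.24, adjusted p = 0.57), from 1.85, 1.48 and 2.5 RPKM proximally against 2.47, 3.78 and 3.07 RPKM distally. The 2 genotypes' location differences were compared directly by the interaction, which no member passed, as described below.

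The remaining tested members had smaller fitted differences between the sites. The 95% interval of the averaged location difference lay within a fitted log2 difference of 1 in either direction for 20 of the 23 members. The exceptions were Adamts1, Adamts2 and Adamtsl1. Because 0.5 is added to RPKM before the log, this limit can hold changes of more than 2-fold in RPKM for members of low level. Adam9, which averaged 8.64 ± 3.01 RPKM proximally and 8.64 ± 1.42 RPKM distally, and Adam15, with 4.73 ± 0.556 and 4.71 ± 1.12 RPKM, had nearly equal means (SD, n = 6 libraries each). Adamts5, which removes versican and aggrecan in mouse valves and aorta, had 5.61 ± 0.368 RPKM proximally and 6.51 ± 1.10 RPKM distally, and was the lower proximally in 5 of 6 mice. Adamts10 averaged 17.2 ± 3.51 RPKM proximally and 22.2 ± 6.58 RPKM distally, and Adamts6 7.62 ± 1.64 RPKM proximally and 6.44 ± 1.98 RPKM distally. Neither passed the test.

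The second comparison was of the genotypes, and it began with the proteases that act on Notch receptors. Adam10 had 4.89, 3.63 and 3.46 RPKM in proximal libraries labelled Notch1+/- against 4.24, 2.94 and 3.80 RPKM in WT proximal libraries, and 2.45, 5.38 and 3.59 RPKM in distal libraries labelled Notch1+/- against 3.39, 4.90 and 4.84 RPKM in WT distal libraries. The groups overlapped at both sites. The fitted log2 differences were 0.11 (95% interval -0.46 to 0.68) proximally and -0.22 (-0.79 to 0.35) distally, each with an adjusted p of 1.0 in limma's test, and the exact two-sided permutation p was 0.60 and 0.70. These intervals leave room for changes of less than 2-fold in either direction.

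Adam17 was the steadier of the 2, with a residual SD within groups of 0.25 on the log2 scale against 0.33 for Adam10. It had 5.16, 4.81 and 5.79 RPKM in proximal libraries labelled Notch1+/- against 5.20, 5.23 and 5.26 RPKM in WT proximal libraries, and 5.47, 7.48 and 3.61 RPKM in distal libraries labelled Notch1+/- against 5.58, 6.64 and 5.82 RPKM in WT distal libraries. The fitted log2 differences were 0.00 (95% interval -0.48 to 0.49) proximally and -0.16 (-0.65 to 0.32) distally, with adjusted p of 1.0 in limma's test. The WT proximal values lay inside the range of those labelled Notch1+/-. The direction of the Adam10 and Adam17 differences turned with the scaling or with single libraries left out, so these values show no direction.

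No member and no gene passed limma's test of genotype in either tissue or of the interaction, 0% of 17297 genes in each. In simulated data with independent noise, 100 genes per size of change were altered on the log2 scale of the fit, and genes of low mean level were not among them. The same fit called 28% of 2-fold genotype changes proximally and 34% distally. It called 6% of 2-fold interactions, so differences of that size could be missed. For low members such as Adam28 and Adam4 no such rate was obtained. At an unadjusted p under 0.05 there were 561 genes (3.24%) for genotype proximally, 524 (3.03%) distally and 507 (2.93%) for the interaction, and 0 members in each. The members' median fitted log2 difference equalled that of all genes to 2 decimals proximally, 0.11 for each, and distally, -0.04 for each. Proximally 17 members were fitted higher and 6 lower, and distally 9 higher and 14 lower. These splits turned with the scaling: with median-of-ratios scaling the proximal medians were -0.0042 for the members and -0.0016 for all genes, 11 members were fitted higher and 12 lower proximally, and 14 were fitted higher and 9 lower distally.

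Members whose 3 values of each genotype did not overlap were Adamts2 in proximal tissue and Adam28 and Adam4 in distal tissue, each higher in the libraries labelled Notch1+/-. The same pattern held for 7.78% of tested genes proximally and 2.63% distally. Adamts2 had a proximal mean of 10.5 ± 1.77 RPKM in libraries labelled Notch1+/- and 7.27 ± 0.851 RPKM in WT libraries (SD, n = 3 each), with a fitted log2 difference of 0.49 (SE 0.26, adjusted p = 1.0 in limma's test). Adam28, an ADAM known mainly from lymphocytes and epididymis, had 1.23, 1.26 and 1.08 RPKM in distal libraries labelled Notch1+/- against 1.07, 0.811 and 0.986 RPKM in WT distal libraries. Adam4 had 0.859, 1.26 and 1.27 RPKM against 0.745, 0.715 and 0.782 RPKM in those same groups, and a fitted log2 difference of 0.37 (SE 0.29, adjusted p = 1.0 in limma's test). The exact permutation p was 0.10 for each of the 3 genes, the smallest that 3 against 3 allows. Groups of 3 that do not overlap always give this p, so it adds nothing to the pattern by which the genes were named.

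The other large fitted genotype differences did not pass the test either. Adamts15 had 1.54, 1.39 and 2.69 RPKM in proximal libraries labelled Notch1+/- against 0.952, 0.406 and 2.38 RPKM in WT proximal libraries, a fitted log2 difference of 0.57 (SE 0.39). Adam19 differed by 0.43 (SE 0.47) proximally and 0.42 (SE 0.47) distally. Adamts9, whose reduced dosage affects valves and aorta in mice, had 2.72, 2.54 and 1.92 RPKM in distal libraries labelled Notch1+/- against 3.25, 2.62 and 3.5 RPKM in WT distal libraries, a fitted log2 difference of -0.33 (SE 0.19). The largest fitted interactions were 0.83 (SE 0.55) for Adamts15, 0.62 (SE 0.34) for Adamtsl3 and -0.59 (SE 0.41) for Adam4. Of the 23 intervals of the interaction, 14 reached a fitted log2 difference of 1 in either direction.

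**Figure D3:**
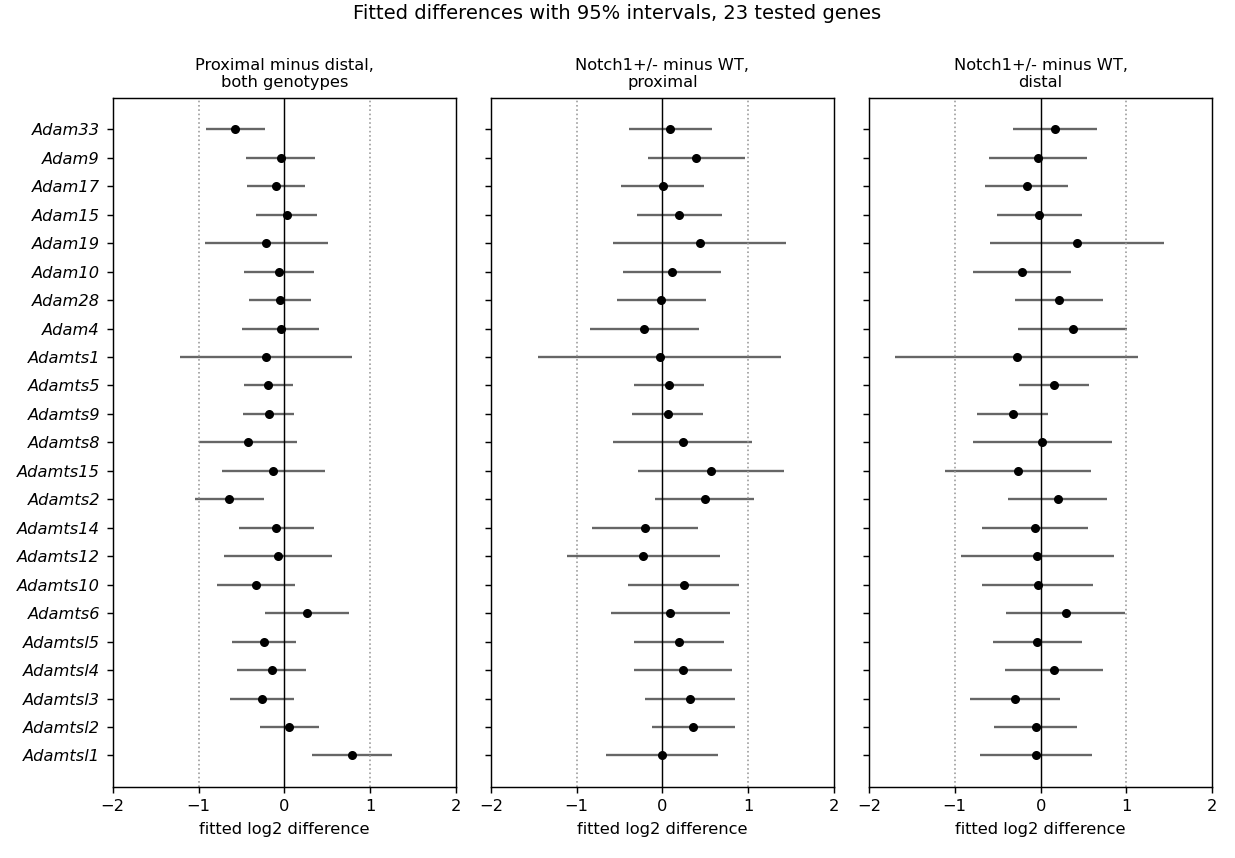
Points are fitted log2 differences and lines are 95% intervals for the 23 tested genes. Panels give proximal minus distal averaged over genotypes, and Notch1+/- minus WT in proximal and in distal tissue. Dotted lines mark a fitted log2 difference of 1 in either direction. The intervals of Adamtsl1, Adam33 and Adamts2 lie off 0 in the left panel, without adjustment for the number of genes tested, and every genotype interval holds 0.

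The members differed widely in how much they varied among the libraries of a group, a spread in which mouse, piece of tissue and preparation are mixed. The residual SD within groups, on the log2 scale, was 0.97 for Adamts1, above 96.7% of tested genes, and 0.67 for Adam19, above 88.2%, against a median of 0.35 over all genes. The lowest residual SDs among the members were those of Adamts9 and Adam28, each with 0.16, and Adamts5 with 0.18. The 0.5 added to RPKM before the log narrows the spread of low genes. Adam28, with a mean of 1.05 RPKM, can thus not be ranked as steadier than Adamts5, with 6.06 RPKM. The most variable member, Adamts1, and one of the least variable, Adamts5, are the chromosome 16 neighbours described above, and both are known to cut versican.

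Adamts1 had 26.9, 13.6 and 10.6 RPKM in proximal libraries labelled Notch1+/- and 22.7, 26.6 and 7.75 RPKM in distal libraries labelled Notch1+/-, in the order of mouse 1 to 3, against 30.2, 19.6 and 6.91 RPKM in WT proximal libraries and 37.5, 28.5 and 7.90 RPKM in WT distal libraries. Mouse 3 of each genotype was the lowest of its group at both sites, and WT mouse 1 was the highest at both. Across genotypes the same number marks different animals, and the labels tie it to no shared day or batch. The deviations from group means over all tested genes of the libraries numbered 3 correlated across genotypes at 0.122 to 0.249, against 0.0731 to 0.216 between the 2 libraries of a mouse, and the part of a shared day or batch in these values was not tested. Mean RPKM of the 2 libraries of a mouse was 9.17 for mouse 3 labelled Notch1+/- and 7.40 for WT mouse 3, and 20.1 to 33.9 for the other 4 mice.

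Adam19, also called meltrin beta, which mouse heart development requires, ran in another order. It had 2.88, 3.59 and 7.02 RPKM in proximal libraries labelled Notch1+/- and 3.55, 5.48 and 6.05 RPKM in distal libraries labelled Notch1+/-, in the order of mouse 1 to 3, against 1.5, 3.19 and 5.22 RPKM in WT proximal libraries and 1.60, 4.23 and 6.16 RPKM in WT distal libraries. Mouse 3 of each genotype was the highest of its group at both sites and mouse 1 the lowest. Adamts12 likewise had its highest value of each group in mouse 3, with 1.49 and 1.57 RPKM in mouse 3 labelled Notch1+/- and 1.86 and 1.63 RPKM in WT mouse 3, proximal before distal, and 0.476 to 1.10 RPKM in the other 8 libraries.

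An F test for differences among the 3 mice of each genotype, chosen after these values had been seen, called 28 of 17297 genes (limma, Benjamini-Hochberg, 0.162%) and 0 of the 23 members. Adamts1 had an adjusted p of 0.11 and Adam19 of 0.16 in that test. With median-of-ratios scaling both passed, with adjusted p of 0.0388 for Adamts1 and 0.0498 for Adam19, and with quantile normalization Adamts1 passed with 0.0423. The called genes included Dbp (adjusted p = 0.00119), Per3 (0.00348), Per2 (0.00969), Ciart (0.00980), Tef (0.00990), Hlf (0.0153) and Nr1d2 (0.0202), which are genes of the circadian clock or its direct output and were looked up after the called genes had been seen. Arntl (adjusted p = 0.0646), Nr1d1 (0.0839) and Klf9 (0.139), looked up with them, did not pass the F test. The other called genes are not described here.

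The 10 genes whose log2 values followed Adamts1 most closely over the 12 libraries, by Pearson's r, were Per2 (0.956), Trp53inp1, Cep120, Tef, Hlf, Glul, Klf9, Lifr, Sgk1 and Npy1r (0.934). These r values describe 12 libraries from 6 mice, and the 2 libraries of a mouse share the animal. Per2, a repressor of the clock whose transcript cycles over the day, had 19.4, 11.6 and 3.52 RPKM in proximal libraries labelled Notch1+/- and 18.0, 16.2 and 3.14 RPKM in distal libraries labelled Notch1+/-, against 21.5, 15.5 and 1.70 RPKM in WT proximal libraries and 22.9, 15.0 and 3.33 RPKM in WT distal libraries, in the order of mouse 1 to 3. Mouse 3 of each genotype was thus low in Per2 as well as in Adamts1. Dbp, a transcription factor driven by the clock, had 0.959 to 3.53 RPKM in the 4 libraries of these mice and 17.1 to 23.4 RPKM in the other 8. The part of such differences in the Adamts1 and Adam19 values was not tested.

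**Figure D4:**
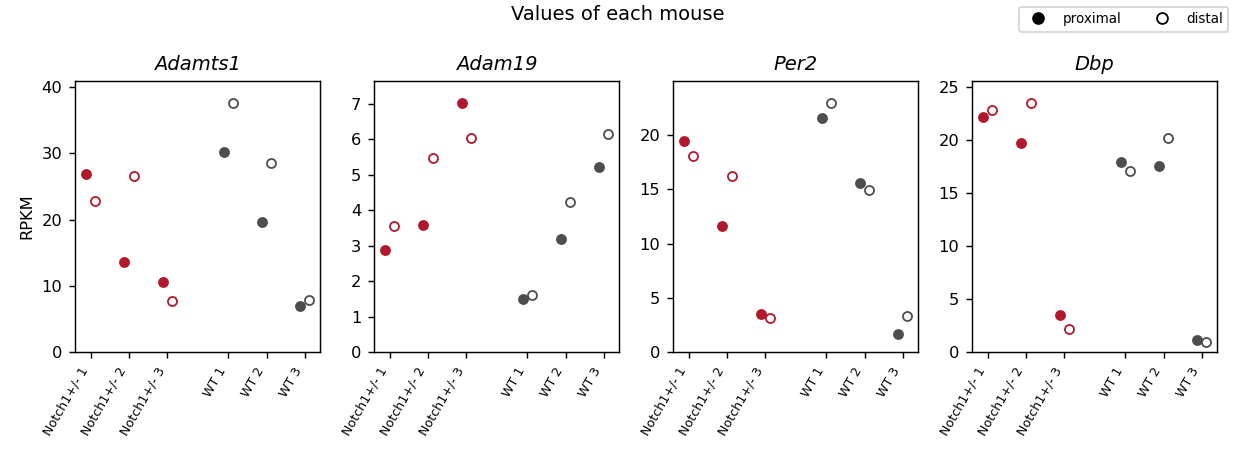
RPKM of Adamts1, Adam19, Per2 and Dbp for each mouse, with the proximal library as a filled point and the distal library as an open point (red, labelled Notch1+/-; grey, WT). Mouse 3 of each genotype is lowest of its group for Adamts1, Per2 and Dbp and highest for Adam19, at both sites.

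Promoters of these 2 genes are shown because their transcripts separated the mice most among the members. They are RefSeq windows of 250 bases before to 50 bases after an annotated start (GRCm38.p6), given 5′ to 3′ on the strand of the gene: chr16:85803064-85803363, minus strand, for Adamts1, and chr11:46054252-46054551, plus strand, for the most upstream of 3 Adam19 starts. Capitals mark the TATA box letters TATAAA in Adamts1 and the E-box letters CACGTG, the core bound by the clock factors Clock and Arntl, in Adam19.
Adamts1: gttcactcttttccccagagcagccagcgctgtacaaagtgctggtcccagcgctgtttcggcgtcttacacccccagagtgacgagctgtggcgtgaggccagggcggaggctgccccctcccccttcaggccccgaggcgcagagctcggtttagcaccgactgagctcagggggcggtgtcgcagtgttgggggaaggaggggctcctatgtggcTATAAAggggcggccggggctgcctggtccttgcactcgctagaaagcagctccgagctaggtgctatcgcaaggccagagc
Adam19: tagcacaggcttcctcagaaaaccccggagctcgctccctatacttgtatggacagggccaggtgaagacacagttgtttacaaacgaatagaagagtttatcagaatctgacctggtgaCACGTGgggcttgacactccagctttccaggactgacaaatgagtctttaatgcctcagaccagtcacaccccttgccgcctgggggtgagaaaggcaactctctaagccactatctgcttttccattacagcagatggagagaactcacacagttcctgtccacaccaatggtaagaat
The other 2 Adam19 windows, 1 of which (chr11:46055734-46056033) holds the start of the annotated gene, had 0 matches to CACGTG, and the expression values do not say which start was used. RefSeq promoters were found for 14 of the 26 members, 16 windows in all, and were searched on both strands for 4 motifs. CACGTG was in 2 of the 16 windows, those of Adam10 and Adam19, and in 7.15% of all 32851 windows, and TATAAA was in 2, those of Adamts1 and Adamtsl2, and in 13.6% of all windows. The D-box letters TTATGTAA or TTACGTAA, the kind of site bound by Dbp, Tef and Hlf, were in 0 of the 16 and in 1.06% of all windows. TGGGAA, the core bound by the Notch partner Rbpj, was in 4 of the 16, those of Adamts14, Adamtsl2, Adamtsl3 and Adamtsl5, and in 25.6% of all windows.

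Genes that work with these proteases were listed as inhibitors, regulators and maturation factors, matrix substrates and shed substrates, and 43 of the 63 listed entered the test. For location averaged over genotypes, 3 of the 43 rose and 1 fell proximally (adjusted p under 0.05, limma), where 1.5% of all genes passed in either direction, and for genotype and the interaction 0 did. The list was chosen with earlier results of these data known, so these counts are no test of the partners as a set. Comp, a cartilage matrix protein cut by Adamts7 and Adamts12, rose to 17.8, 14.0 and 11.8 RPKM in proximal libraries labelled Notch1+/- and 8.28, 3.83 and 14.6 RPKM in WT proximal libraries, against 0.577, 1.70 and 0.594 RPKM in distal libraries labelled Notch1+/- and 0.228, 2.37 and 2.07 RPKM in WT distal libraries (log2 2.84, SE 0.38, adjusted p = 0.00295 in limma's test). Every proximal value lay above every distal one. Comp is also one of the chondrogenic and valve markers whose summed level differed between the sites.

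Thbs1, thrombospondin 1, rose by 2.58 on the log2 scale (SE 0.31, adjusted p = 0.00139), and Cd44, a hyaluronan receptor shed by Adam10 and Adam17, by 0.74 (SE 0.16, adjusted p = 0.0347), both in limma's test. Timp2, an inhibitor of matrix metalloproteases, fell by 0.62 on the log2 scale (SE 0.11, adjusted p = 0.0119 in limma's test), with 70.3 to 92.0 RPKM in the proximal libraries against 115 to 154 RPKM in the distal libraries. Timp3, the inhibitor that acts on ADAM and ADAMTS proteases, did not pass, with 86.0 to 136 RPKM proximally and 75.5 to 148 RPKM distally. The proteoglycan substrates also did not pass: Vcan had 19.9 to 38.9 RPKM in proximal libraries and 14.3 to 31.7 RPKM in distal libraries, and Acan 0.645 to 1.60 RPKM in proximal libraries and 0.160 to 0.764 RPKM in distal libraries, with an adjusted p of 0.12 in limma's test. Acan reached 1 RPKM only in proximal libraries, so it entered the test through the tissue where it was higher, and its lowest distal values lay near the floor.

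The authors' deposited table, from an analysis of variance on genotype and location, gave false discovery rates for location of 0.106 for Adamtsl1, 0.133 for Adam11, 0.198 for Adam33 and 0.262 for Adamts2. In the authors' deposited table the false discovery rates for genotype and for the interaction were 0.999 and 1.0 for each of the 26 genes.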

How the data were processed

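RNA of 12 libraries was amplified with the NuGEN Ovation kit named in the labels' protocols, which does not keep strand, and reads were aligned to mm10 with TopHat2 2.1.0, as the submitters' processing notes list. Which counting tool and annotation were used is not given in the sources used here. Per the file headers, the deposited values are RPKM per gene and library; those under a library's own detection threshold had been replaced by 0.158 RPKM. P-values of an analysis of variance are also deposited. Another 36 columns of per-sample values in other tables were not used. Reads were worked back from the RPKM steps for all 26 members (tolerance 0.001).

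Groups came from the labels. limma 3.58.1 (R 4.3.3) was fitted with a variance trend to log2(RPKM + 0.5) of 17297 genes with at least 1 RPKM in at least 3 of 12 libraries, with 4 group means and 6 contrasts, Benjamini-Hochberg over all genes, two-sided. Fitted differences are on that scale, which understates changes of low genes. Depth was 26518332 to 36742096 reads per library. The fit was tested on simulated data. Same-numbered proximal and distal libraries of a genotype come from 1 mouse, per the sample sheet, and their deviations from group means correlated at 0.0731 to 0.216 over 6 pairs, a range that same-numbered pairs across genotypes overlapped (-0.0517 to 0.249 over 12 pairs); a fit with the mouse as a block was an alternative, as were other pseudocounts, filters, scalings and libraries left out. Named genes were members called in any contrast, the 12 with the highest mean RPKM, the 3 with the largest fitted difference per contrast and tested members of the role lists; Adam1a, Adam11, Adamts7, Adamts12 and the clock genes were named after their values were seen. Members and lists were chosen with earlier results of these data known. Promoters are from RefSeq.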

Additional observations from a re-analysis of the deposited data

How the results depend on the processing

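No member passed in any of the 6 contrasts under the other pseudocounts, filters, scalings or blocks. With single libraries left out, the count of members for location averaged over genotypes was 0 to 1 (Adam33 without Notch1+/- distal replicate 3, Adamts2 without WT distal replicate 1), and 0 for the other contrasts. Of 483 alternatives for 23 differences of named members, 12 turned the direction, none of them past the threshold before or after. With single libraries left out, Adam10 ranged from -0.47 to 0.024 in distal tissue and from -0.028 to 0.21 in proximal tissue, Adam17 from -0.39 to 0.087 in distal tissue and from -0.064 to 0.059 in proximal tissue, and Adam19 from -0.052 to 0.78 in distal tissue. Without the 2 distal libraries with the most Myh6, Adam10 in distal tissue was 0.11. In proximal tissue Adam10 was -0.0042 with median-of-ratios scaling, and Adam17 was -0.020 with a constant sum without mitochondrial genes, -0.12 with median-of-ratios scaling and -0.11 with quantile normalization.

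Counts over all genes moved more. For location averaged over genotypes, 260 genes became 141 to 228 with single libraries left out, 156 without the 2 distal libraries with the most Myh6 and 233 with the mouse as a block. For location in mice labelled Notch1+/-, 44 became 29 with a pseudocount of 0.1 and 14 to 51 with single libraries left out. For location in WT, 41 became 65 with a constant sum without mitochondrial genes, 5 with only the groups compared, 21 with the mouse as a block and 7 to 45 with single libraries left out. Genotype in each tissue gave 0 to 1 genes with single libraries left out. The replicate number as a block across genotypes, where the mice are different animals, gave 0 genes in each tissue; deviations of same-numbered libraries correlated across genotypes at -0.0517 to 0.249 over 12 pairs, and pairs of number 3 were all above 0. In the location tests the mouse block changed no call of a member. The F test among mice gave 50 genes and 2 members with median-of-ratios scaling and 1 member with quantile normalization. The cause of these shifts was not tested.

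Members under 1 RPKM rest on few reads, and the floor hides differences below it. Each piece of tissue was sequenced once, so for a single library the animal, the piece and the preparation cannot be told apart. Both libraries of a mouse together allow the F test among mice given above. A preparation shared by both libraries of a mouse would also enter that test.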

Other observations

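Among members that no comparison turned on, Adamts8 had its highest value in the distal library labelled Notch1+/- 2, with 3.87 RPKM, and 0.902 to 3.12 RPKM in the other 11 libraries. Adamts7 had 1.07 RPKM in WT proximal mouse 3 and at most 0.432 RPKM in the other 11 libraries; that library also had the highest summed cardiomyocyte markers, 1736 RPKM, and the highest summed chondrogenic and valve markers, 182 RPKM. Adam9 had 14.2 RPKM in the proximal library labelled Notch1+/- 1 and 6.28 to 10.9 RPKM in the other 11. Adamts6 had 3.14 RPKM in WT distal mouse 1 and 5.05 to 9.59 RPKM in the others.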
